A study of Mus musculus with 6 samples.

Results

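Breakdown of the branched-chain amino acids leucine, isoleucine and valine was followed across 6 one-colour CodeLink arrays of 3T3-L1 adipocytes, through the genes Bcat2, Bckdha, Bckdhb, Dbt, Ivd, Mccc1, Mccc2, Hibch, Aldh6a1 and Pcca. Members were taken by gene symbol, from probes that the platform annotation assigns to exactly 1 gene. A probe was found for 9 of the 10 genes, 1 probe for each, out of 18014 genes tested in all, and Mccc2 was not analysed here. 3T3-L1 is a mouse preadipocyte line that becomes lipid-filled after an adipogenic cocktail, and RNA was taken 10 days after differentiation. The control group (3 arrays) carried the Tet-off plasmid alone. The UCP1 group (3 arrays) expressed uncoupling protein 1, which lets protons re-enter the mitochondrial matrix without ATP synthesis. Groups were read from the source label, because the digit ending each UCP1 title may be a replicate number, as used here, or belong to a protein name. The promoter behind UCP1, any drug used to switch it, whether the cells were 1 clone or a pool, and whether arrays of a group were separate cultures could not be read from the labels. The p-values therefore rest on array-to-array spread alone, part or all of which may be technical.

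The pathway runs mostly inside mitochondria. A transaminase first moves the amino group to 2-oxoglutarate, and the branched-chain 2-oxoacid dehydrogenase complex then removes carbon dioxide and attaches coenzyme A in its committed step. From there leucine ends as acetyl-CoA and acetoacetate, while valine and isoleucine yield propionyl-CoA that enters the tricarboxylic acid cycle. Differentiating adipocytes, 3T3-L1 included, are known to raise these enzymes and to use the carbon for energy and lipid.

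Values are intensities on a linear scale with array medians of 1.04 to 1.05, so each level is relative to its own array. Ucp1 read 0.222, 0.232 and 0.278 on control arrays 1, 2 and 3, against 2.34, 2.02 and 1.54 on UCP1 arrays 1, 2 and 3. It rose by 3.00 ± 0.234 (SE) in log2 units (limma, adjusted p = 0.00013, or 0.0855 without the intensity trend in the variance model). Control readings of Ucp1 were dim, so the size is uncertain: with an offset of 0.171 added before log2 the difference was 2.35. Of the adipocyte markers, Adipoq, for adiponectin, lay between 679 and 932 on every array, and Lpl between 669 and 950. The array maxima were 683 to 950, and whether readings this bright were saturated was not tested. Both genes are part of the summed level given below. Lipe was dim, at or below 0.222 on every array, and Cebpa lay between 2.16 and 6.72, with overlapping groups and a difference of -0.69 that did not pass (limma, adjusted p = 0.167). The summed level of 8 measured adipocyte markers ran from 3414 to 3917 in controls and from 2812 to 3883 in UCP1. For 7 preadipocyte and fibroblast markers it ran from 125 to 152 and from 156 to 195. Pdgfra and Thy1 rose among them (limma, adjusted p = 0.0484 and 0.0319), 4 of the 7 lay below 0, and the median difference was -0.07. The brighter probe of Dlk1 did not pass (adjusted p = 0.323) and its other probe rose 2.12-fold (0.00526). For 4 macrophage markers the summed level ran from 1.06 to 1.99 and from 2.86 to 4.42. Lyz2 carried it and rose 2.8-fold (limma, adjusted p = 0.00571), while Ptprc and Adgre1 stayed at or below 0.334 on all arrays. Of the measured endothelial, skeletal muscle and hepatocyte markers, 0 of 4, 0 of 5 and 0 of 3 passed. The part of these differences in the results that follow was not tested. In bulk RNA, fewer cells of a type and less RNA per cell cannot be told apart. The 99th percentile of intensity was 255 to 279 on control arrays and 185 to 225 on UCP1 arrays.

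All 9 measured genes had a lower mean in UCP1 in the deposited scaling, and 6 of the 9 after quantile normalization or cyclic loess. By the test across all probes (limma with an intensity trend, Benjamini-Hochberg adjustment, threshold 0.05), 2 of the 9 fell, namely Dbt and Pcca, and 0 rose. Over all genes, dim ones included, 2.92% fell and 1.13% rose. All 9 members lay at or above the median probe level. In a fit of the 18058 probes at or above that level, 1716 probes fell and 523 rose, and 4 of the 9 members fell. The shares of all genes that follow were likewise not matched for level. An unadjusted p under 0.05 with a lower level in UCP1 was reached by 5 of the 9, by 15.1% of all genes, and in either direction by 20.8%. The UCP1 arrays lay wholly below the controls in 4 of the 9, Bckdha, Dbt, Ivd and Pcca, which 17.1% of all genes did. The median of the 9 differences was -0.55 on the log2 scale, beside -0.08 over all genes, of which 60.1% were below 0. After quantile normalization these medians were -0.39 and 0.0088. Of all called probes 71.7% were lower in UCP1 in the deposited scaling, 44.0% after quantile normalization and 47.1% after cyclic loess.

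**Figure D1:**
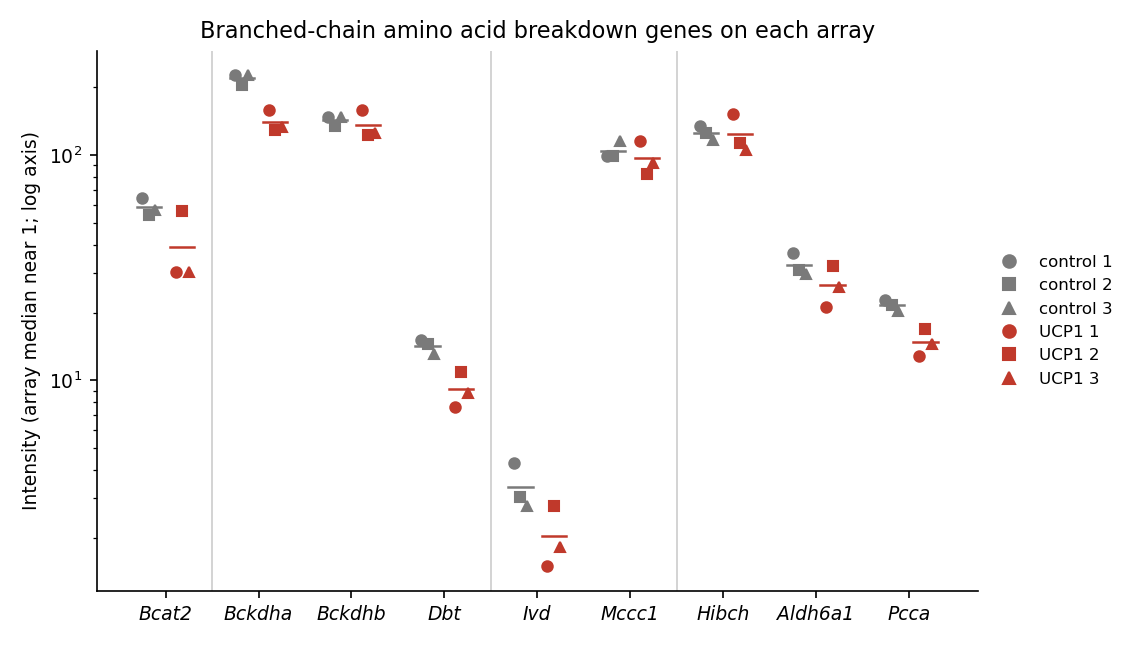
Intensity of the 9 measured genes (log axis, array median near 1) on each control array (grey) and UCP1 array (red), with a bar at each group mean; symbols mark the array number and vertical lines part the transaminase, the dehydrogenase complex, the leucine branch and the valine and isoleucine branches. UCP1 points lie wholly below control points for Bckdha, Dbt, Ivd and Pcca, and overlap them for the other 5 genes.

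The member gene of the first step read lower than any control on 2 of 3 UCP1 arrays. Bcat2, the mitochondrial transaminase that starts breakdown of all 3 amino acids, read 64.7, 54.1 and 56.8 on the control arrays and 30.2, 56.3 and 30.4 on the UCP1 arrays. UCP1 array 2 thus lay among the controls, and the other UCP1 arrays lay far below them. The difference was -0.65 ± 0.212 (SE) on the log2 scale and did not pass (limma, adjusted p = 0.13). It passed in 1 of 18 alternatives, the one without UCP1 array 2 (-0.95, adjusted p = 0.00317), the array that lay among the controls. Without UCP1 array 1 it was -0.50 (adjusted p = 0.23) and without UCP1 array 3 also -0.50 (0.429).

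Subunits of the dehydrogenase complex gave unequal differences. Bckdha encodes the alpha subunit of the decarboxylase, the part that carries the sites phosphorylated by the inhibiting kinase. It read 225.9, 204.8 and 225.7 in controls and 158.5, 129.5 and 132.5 in UCP1. The groups were apart, and the level in UCP1 was 63.9% of that in controls. The difference of -0.65 ± 0.161 (SE) just missed the threshold (limma, adjusted p = 0.0554). It passed under 6 of 18 alternative settings, among them without UCP1 array 1, the highest UCP1 array (adjusted p = 0.0147). With all probes fitted, it did not pass after quantile normalization (0.0697) or cyclic loess (0.0731). Without the intensity trend it did not pass either (0.236), but there 0 of all probes were called. With the brighter probes fitted alone, settings added after seeing the data, it passed without the trend (0.0105) and after quantile normalization (0.0387). Nor did it pass without UCP1 array 2 (0.108) or 3 (0.145), or without control array 1 (0.223), 2 (0.152) or 3 (0.18).

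Bckdhb encodes the beta subunit, which pairs with the alpha subunit in a heterotetramer. It read 147.3, 134.0 and 147.8 in controls and 157.9, 123.1 and 125.8 in UCP1. UCP1 array 1 was the highest of all 6 and the groups overlapped. The difference was -0.08 (95% interval -0.43 to 0.26, limma, adjusted p = 0.833), and it turned to 0.22 after quantile normalization and to 0.15 after cyclic loess.

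Dbt encodes the lipoyl-bearing acyltransferase that forms the core of the complex. It read 15.2, 14.5 and 13.1 in controls and 7.63, 10.9 and 8.77 in UCP1. Every UCP1 array was below every control, and Dbt fell 1.58-fold, by 0.66 ± 0.139 (SE) in log2 units (limma, adjusted p = 0.0291). With all probes fitted, the call was lost after quantile normalization (adjusted p = 0.105), after cyclic loess (0.113) and without the intensity trend (0.276). It was also lost without control array 1 (0.114), 2 (0.0954) or 3 (0.051) or UCP1 array 3 (0.162).

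Within an array, the alpha-to-beta ratio of the decarboxylase does not depend on that array's overall scale. Relative to the control mean, log2 of Bckdha over Bckdhb was 0.0036, -0.0011 and -0.0025 on the control arrays. On the UCP1 arrays it was -0.61, -0.54 and -0.54. The 3 controls lay almost on top of each other (SD 0.0032) and all UCP1 arrays lay far below (SD 0.0391). The mean difference was -0.56, and the exact permutation test over arrays gave p = 0.1 (two-sided), the smallest that 3 against 3 allows. The pair was chosen after its values were seen, so this p-value is descriptive only. The mean difference ranged from -0.62 to -0.54 over 18 alternative settings. Settings that changed only the variance model, the probes fitted, the replicate block or a constant per array could not move it. After quantile normalization it was -0.615 and after cyclic loess -0.55.

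Other subunit pairs were less tight, and all 4 pairs were chosen after their values were seen. Dbt over Bckdhb was lower by 0.58 in UCP1 with the groups just apart (-0.166 on control array 3 against -0.167 on UCP1 array 2, exact permutation p = 0.1). Bckdha over Dbt differed by 0.014 with overlapping groups (exact permutation p = 0.9). Pcca over Pccb, the subunits of propionyl-CoA carboxylase, was lower by 0.26 with the groups apart (exact permutation p = 0.1). Its difference ran from -0.34 to -0.12 over the same settings, and the same limit applies. Adjusted over the 4 pairs, the smallest p was 0.133.

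**Figure D2:**
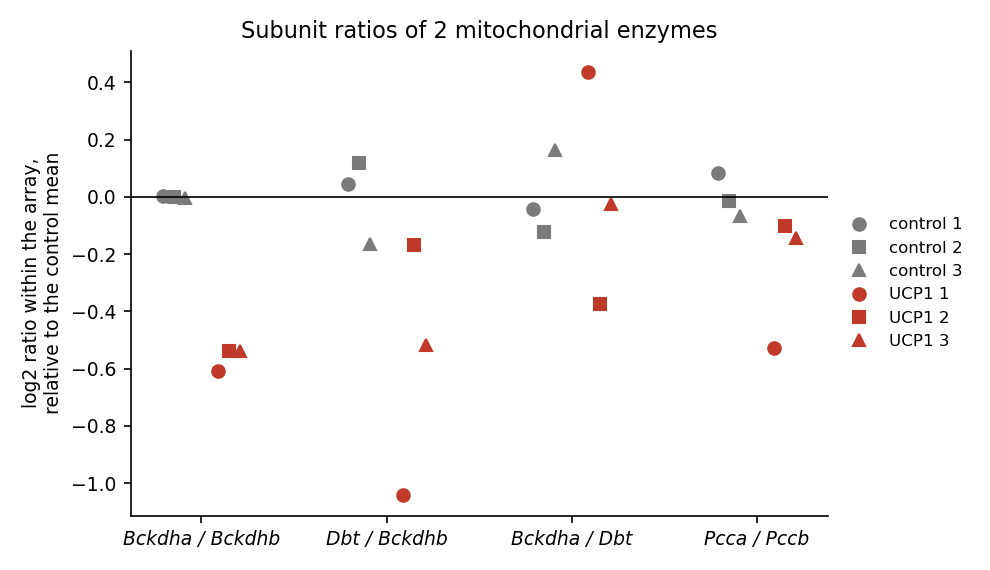
log2 ratio of 2 subunit genes within each array, relative to the control mean, for 4 subunit pairs; grey symbols are control arrays 1 to 3 and red symbols UCP1 arrays 1 to 3. For Bckdha over Bckdhb the controls sit at 0 and the UCP1 arrays between -0.61 and -0.54, while Bckdha over Dbt overlaps.

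The start-site windows of Bckdha and Bckdhb are shown because both genes encode subunits of the same enzyme. Any link between these windows and the readings was not tested. RefSeq sequences of GRCm38.p6 cover 250 bases before to 50 after an annotated start, for 9 of the 10 genes. No window was available for Dbt. Capitals mark the GC box GGGCGG, the CCAAT box and the nuclear receptor hexamer AGGTCA, each on either strand.
Bckdha, chr7:25658712-25659011, minus strand: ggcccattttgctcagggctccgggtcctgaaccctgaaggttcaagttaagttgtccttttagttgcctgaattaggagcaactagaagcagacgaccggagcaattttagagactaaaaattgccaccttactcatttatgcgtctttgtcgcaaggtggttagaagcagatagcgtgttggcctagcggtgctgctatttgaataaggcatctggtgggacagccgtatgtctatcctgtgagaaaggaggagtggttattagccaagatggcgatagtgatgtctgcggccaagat
Bckdhb, chr9:83924887-83925186, plus strand: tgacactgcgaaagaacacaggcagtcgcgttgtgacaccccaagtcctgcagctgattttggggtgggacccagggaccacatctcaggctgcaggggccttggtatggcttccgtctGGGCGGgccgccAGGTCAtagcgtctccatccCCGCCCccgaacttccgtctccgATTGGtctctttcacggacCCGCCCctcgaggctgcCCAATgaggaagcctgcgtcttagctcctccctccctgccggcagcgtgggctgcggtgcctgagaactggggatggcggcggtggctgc
The Bckdha window held none of these letters and the Bckdhb window held 3 GC boxes, 2 CCAAT boxes and 1 AGGTCA. Their GC contents were 48.0% and 65.0%, beside a median of 52.7% over all 32851 windows. Another annotated Bckdhb start, chr9:83948531-83948830, had 37.3% GC and 1 CCAAT box. Among all windows, 35.7% held GGGCGG, 37.4% CCAAT and 16.3% AGGTCA, and among the 13 windows of the listed genes, Mccc2 included, 4, 9 and 4 did. No window of these genes held TATAAA (13.6% of all windows), the C/EBP element TTGCNNAA (10.8%) or the CHOP-ATF4 element TGATGNAA (3.97%). These are matches of letters and say nothing of binding.

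In the leucine branch, Ivd, isovaleryl-CoA dehydrogenase, was read by a probe not far above the array median. It gave 4.32, 3.02 and 2.78 in controls and 1.498, 2.77 and 1.83 in UCP1. The groups were barely apart, since UCP1 array 2 (2.770) lay just under control array 3 (2.776). The difference was -0.75 ± 0.225 (SE) and did not pass (limma, adjusted p = 0.1), and it passed in 3 of 18 alternatives. Without UCP1 array 2, the highest UCP1 array, it was -0.999 (adjusted p = 0.0103), without UCP1 array 1 -0.56 (0.191), without UCP1 array 3 -0.70 (0.345) and without control array 1 -0.56 (0.316). Mccc1, the biotin-carrying subunit of methylcrotonyl-CoA carboxylase, read 99.2, 98.96 and 115.2 in controls and 115.2, 82.8 and 91.9 in UCP1. Its groups overlapped, with a difference of -0.12 (95% interval -0.47 to 0.23, adjusted p = 0.751) that turned positive after both quantile normalization and cyclic loess.

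In the valine and isoleucine branches 1 of 3 members, Pcca, passed the test. Hibch, which releases 3-hydroxyisobutyrate from its coenzyme A ester on the valine route, read 134.6, 125.3 and 117.1 in controls and 151.5, 113.6 and 105.4 in UCP1. Those readings overlapped, with UCP1 array 1 the highest and UCP1 array 3 the lowest of the 6. Its difference was -0.04 (95% interval -0.41 to 0.33, limma, adjusted p = 0.933) and changed sign under 6 of 18 alternatives. Aldh6a1, which oxidises methylmalonate semialdehyde to propionyl-CoA, read 36.7, 31.0 and 29.7 in controls and 21.2, 32.2 and 26.0 in UCP1. UCP1 array 2 lay within the control range, and the difference was -0.31 ± 0.156 (SE, adjusted p = 0.354).

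Pcca encodes the biotin-carrying subunit of propionyl-CoA carboxylase, where the valine and isoleucine routes meet. It read 22.7, 21.6 and 20.3 in controls and 12.9, 16.9 and 14.5 in UCP1. No UCP1 array reached a control, and Pcca fell 1.47-fold, by 0.55 ± 0.125 (SE) in log2 units (limma, adjusted p = 0.0387). With all probes fitted, that call was lost after quantile normalization (adjusted p = 0.163), after cyclic loess (0.153) and without the intensity trend (0.277). It was also lost without control array 1 (0.148), 2 (0.12) or 3 (0.0727) or UCP1 array 3 (0.17).

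**Figure D3:**
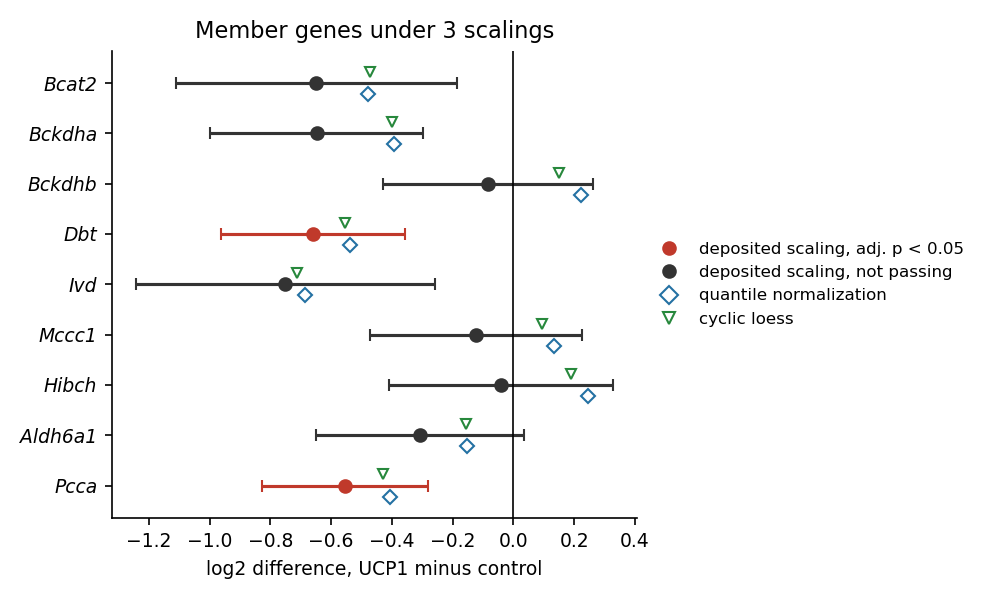
log2 difference, UCP1 minus control, for the 9 genes with 95% intervals from limma in the deposited scaling (filled circles, red where the adjusted p was under 0.05), and the same difference after quantile normalization (diamonds) and cyclic loess (triangles). Dbt and Pcca are the red points, and Bckdhb, Mccc1 and Hibch move from below 0 to above 0 when the arrays are renormalized.

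The members fell into 2 patterns across the UCP1 arrays. UCP1 array 2 was the highest UCP1 array for Bcat2, Dbt, Ivd, Aldh6a1 and Pcca, and UCP1 array 1 was the lowest for each of these 5. UCP1 array 1 was instead the highest for Bckdha, Bckdhb, Mccc1 and Hibch. After the group means were removed, Dbt and Pcca correlated at r = 0.997 over the 6 arrays and Bckdha and Bckdhb at 0.996, whereas Dbt and Mccc1 correlated at -0.942. These arrays share RNA and scaling across genes, so the values describe these 6 arrays only. Of all probes with a mean log2 level from 3 to 4, UCP1 array 1 was the highest UCP1 array for 72.8%. The share was 80.6% from 4 to 5, 88.7% from 5 to 6, 81.6% from 6 to 7 and 58.1% from 7 to 8. Bckdha, Bckdhb, Mccc1 and Hibch, at levels from 6 to 8, had this more common order. Bcat2, Dbt, Aldh6a1 and Pcca, at levels from 3 to 6, thus ran against the order most probes of their brightness showed. The part of array scaling in these patterns was not tested.

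The shift of all probes also moved with brightness. The median difference was -0.11 for levels from 3 to 4, -0.16 from 5 to 6 and -0.19 from 7 to 8. Bckdhb, Mccc1 and Hibch lay above the median of their band, and the other 6 members lay below theirs.

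**Figure D4:**
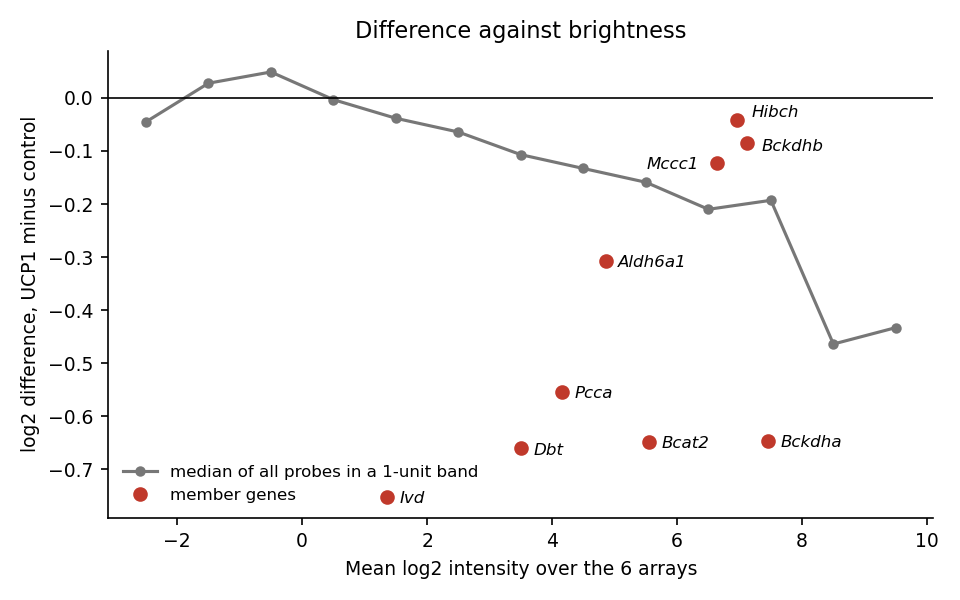
log2 difference, UCP1 minus control, against mean log2 intensity; the grey line joins the medians of all tested probes in bands of 1 log2 unit (the dimmest band also holds all dimmer probes), and red points are the 9 genes. Bckdhb, Mccc1 and Hibch sit above the grey line and the other 6 genes below it, Bckdha at -0.65 where the line is at -0.19.

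The genes whose 6 readings were most like those of Dbt, the member with the smallest p, were ranked by Pearson r over the 6 arrays among 10755 genes at or above the median level. Pcca came first (r = 0.9985), followed by Atad3a (0.9985), Bscl2 (0.998), Skap2 (0.9968) and Abcf1 (0.9965). Each of these read lowest on UCP1 array 1 and, among the UCP1 arrays, highest on UCP1 array 2. That order and the lower UCP1 values follow from the choice, since the ranking used the same 6 readings, group difference included. Bscl2, which encodes the lipid droplet protein seipin, read 13.4, 12.2 and 10.2 in controls and 3.72, 6.69 and 4.56 in UCP1, a log2 difference of -1.29. The differences of Atad3a, a mitochondrial membrane ATPase, Skap2 and Abcf1 were -0.37, -0.52 and -0.53.

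Of 25 other measured genes of the pathway, 1 rose and 1 fell, with 23 below 0 and a median of -0.25. Over all genes 1.13% rose, 2.92% fell and 60.1% were below 0, with a median of -0.08. Those shares include dim genes, whereas 24 of the 25 lay at or above the median probe level. The pathway gene that fell was Bckdk, the kinase that phosphorylates Bckdha and thereby restrains the complex. Its brighter probe read 22.3, 20.6 and 18.4 in controls and 10.3, 13.8 and 11.5 in UCP1. The groups were well apart, and it fell 1.73-fold, by 0.79 ± 0.132 (SE) in log2 units (limma, adjusted p = 0.0107). The call held after quantile normalization (0.0467) and cyclic loess (0.0487). It was lost without the intensity trend on all probes (0.233), without control array 1 (0.05) and without UCP1 array 3 (0.0856). Its dimmer probe was at -0.19 and did not pass (adjusted p = 0.595).

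The opposing phosphatase Ppm1k read 14.7, 14.9 and 16.0 in controls and 13.2, 9.62 and 12.4 in UCP1, a difference of -0.38 that did not pass (limma, adjusted p = 0.15). Dld, the dihydrolipoamide dehydrogenase shared with the pyruvate and 2-oxoglutarate complexes, read 26.5, 22.7 and 17.5 in controls and 8.28, 18.7 and 11.8 in UCP1. Control array 3 and UCP1 array 2 crossed, and the difference of -0.84 ± 0.244 (SE) did not pass (adjusted p = 0.0904). It passed in 4 of 18 alternatives. Without UCP1 array 2, the highest UCP1 array, it was -1.15 (adjusted p = 0.00441), and without UCP1 array 1 it was -0.56 (0.159). Ppm1k and Dld, like Bcat1 and Pccb, were picked for their roles after their values were seen.

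The gene that rose was Abat, the 4-aminobutyrate transaminase, which also converts 3-aminoisobutyrate to methylmalonate semialdehyde, the substrate of Aldh6a1. Its brighter probe read 25.6, 22.6 and 18.8 in controls and 66.2, 55.1 and 51.3 in UCP1. The lowest UCP1 reading was far above the highest control, and Abat rose 2.58-fold, by 1.37 ± 0.147 (SE) in log2 units (limma, adjusted p = 0.00113). It passed under 17 of 18 alternatives and was lost without the intensity trend on all probes (adjusted p = 0.186). Its other probe was dim, between 0.162 and 0.569 on all arrays, and differed by 0.07 (adjusted p = 0.967).

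Acad8, isobutyryl-CoA dehydrogenase of the valine route, had the next smallest p. It read 8.45, 8.22 and 7.07 in controls and 4.40, 5.84 and 6.18 in UCP1, a difference of -0.54 that did not pass (limma, adjusted p = 0.0687). Its other probe was at or below 0.209 on all arrays. The brightest of the 3 probes of the cytosolic transaminase Bcat1 lay a little above the array median, and its other probes were dim. The brightest read 1.30, 1.23 and 1.52 in controls and 1.69, 1.19 and 1.49 in UCP1 (difference 0.10, limma, adjusted p = 0.822). Pccb, the partner of Pcca, read 72.5, 73.8 and 72.0 in controls and 62.7, 61.2 and 54.1 in UCP1. Its groups were apart, and its difference of -0.30 did not pass (adjusted p = 0.252). Of the 9 measured later enzymes of the valine and isoleucine branches, 0 passed, with a median of -0.25.

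**Figure D5:**
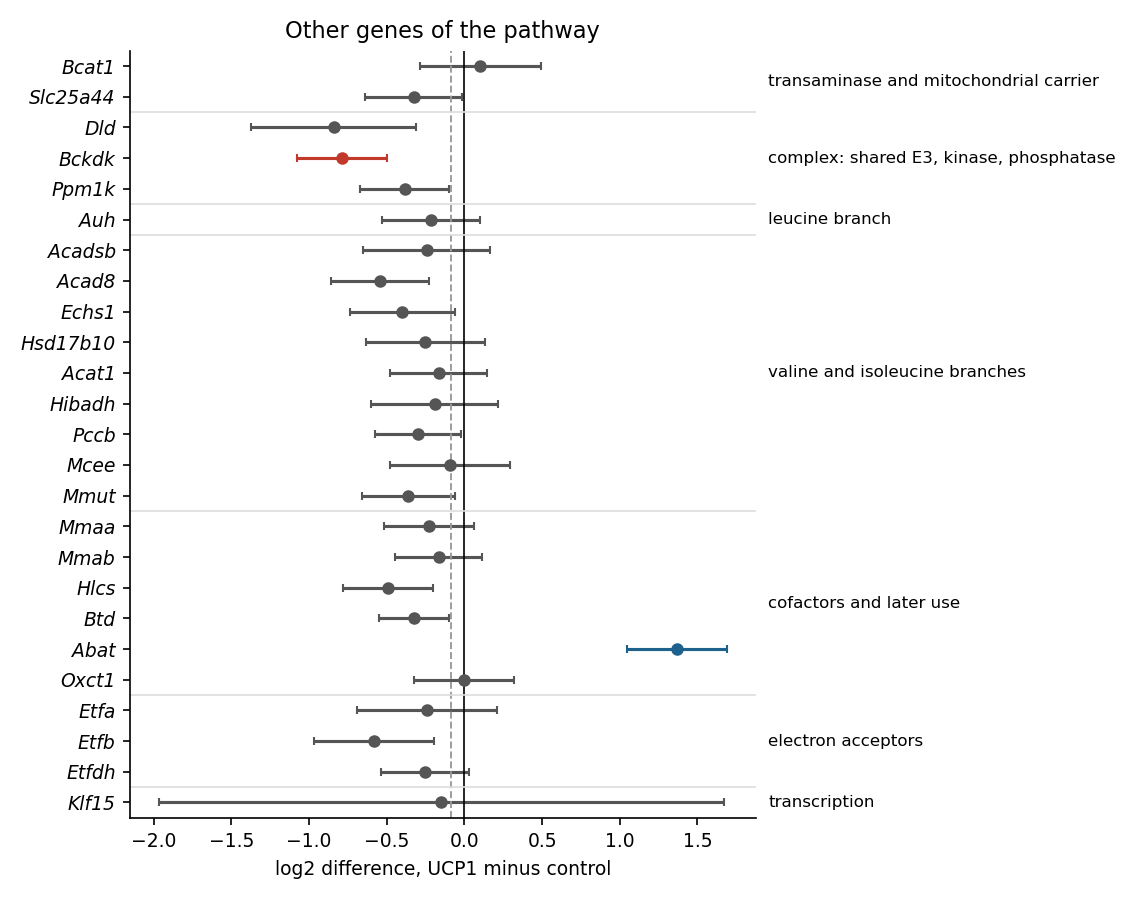
log2 difference, UCP1 minus control, with 95% intervals from limma for 25 other genes of the pathway, 1 probe each, grouped by role; red marks a gene that fell, blue a gene that rose, and the dashed line is the median over all genes (-0.08). Bckdk at -0.79 and Abat at 1.37 are the coloured points, and 23 of the 25 lie below 0.

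Enzymes of the same families outside the pathway were set beside the members. Of 15 such genes, all at or above the median probe level, 1 fell and 0 rose, with 14 below 0 and a median of -0.40. Over all genes, dim ones included, 2.92% fell, 1.13% rose and 60.1% were below 0, with a median of -0.08. Among 5 other 2-oxoacid dehydrogenase subunits 0 passed, and those with the smallest p were Ogdh of the 2-oxoglutarate complex, at -0.61 (limma, adjusted p = 0.0764), and Pdhb of the pyruvate complex, at -0.42 (adjusted p = 0.127). Among 7 other acyl-CoA dehydrogenases Gcdh, which acts on lysine and tryptophan breakdown, fell 1.43-fold (adjusted p = 0.0331, lost under 9 of 18 alternatives, each control left out among them), and the medium-chain enzyme Acadm was at -0.65 (adjusted p = 0.0621). Among 3 other biotin carboxylases 0 passed, with Acacb at -0.41 (adjusted p = 0.0958) and Acaca at -0.16 (adjusted p = 0.721). The members' median was -0.55, and no test of the difference between these medians was made.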

How the data were processed

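Total RNA of 3T3-L1 adipocytes was biotin-labelled and hybridised to CodeLink mouse arrays, per the labels. The deposited intensity values are linear and were scaled by the authors to array medians near 1; the scanner program, any background correction and how the scaling was done are not stated in the labels or files used. The code for no value was treated as missing (116 to 125 probes per array). Values at or below 0 (80 to 159 per array) were set to the array's smallest positive value before log2. No detection mark was used. The number of arrays, 3 a group, is 1 limit on precision.

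Probes with values on at least 2 arrays per group were fitted by limma 3.58.1 under R 4.3.3 (lmFit, eBayes with an intensity trend, two-sided), with Benjamini-Hochberg adjustment over all 36116 probes; the functions were tested on simulated data. All 9 members passed that filter. Names came from the platform annotation (21615 probes with 1 symbol). A gene was represented by its brightest probe. The members and gene lists were chosen with earlier results of these data known. Named were Ucp1, every member, each called pathway gene with the 3 of smallest p, the 2 of smallest p per related family, and the 5 genes most like the leading member. Replicate numbers were not taken to pair arrays. Alternatives covered an offset before log2 (0.171, the 10th percentile of positive values), normalization, dim probes, missing values, the variance model, array weights, the replicate block and each array left out.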

Additional observations from a re-analysis of the deposited data

How the results depend on the processing

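Over 16 alternatives and 2 more chosen after seeing the data, Bcat2, Bckdha, Dbt, Ivd, Aldh6a1 and Pcca stayed below 0 throughout. Dbt passed in 10 of 18 and Pcca in 9 of 18. Settings that changed only the variance model, the probes fitted or the replicate block left each member's difference as it was, so no sign could turn there. Direction turned for Bckdhb (0.22), Mccc1 (0.13) and Hibch (0.245) after quantile normalization, for the same genes (0.15, 0.10 and 0.19) after cyclic loess, and again (0.22, 0.13 and 0.245) when the brighter probes alone were quantile normalized, an added setting; with an array left out Hibch ran from -0.197 to 0.0646, above 0 without control 1 (0.0102), UCP1 2 (0.0106) and UCP1 3. The count of members that fell, 2, became 0 after quantile normalization, after cyclic loess and without the intensity trend, 4 on the brighter probes with and (added) without the trend, 1 when these were quantile normalized, and 1 with the replicate block (Pcca, adjusted p = 0.0575, and outside the members Gcdh, 0.0506, then missed the threshold; 776 probes called). Same-numbered arrays deviated from their group means with correlations of -0.24, -0.0069 and 0.10, and not every array correlated best with its own number. Leaving out each array gave 0 to 4. Of all 36116 probes 732 fell in the main fit. Of the 18058 brighter probes, fitted alone, 1716 fell with the trend, 1645 without it and 708 after quantile normalization. Other pathway genes that fell, 1, became 5 on the brighter probes with and without the trend, 0 without the trend on all probes, 2 with robust eBayes and 4 with array weights, and 0 to 5 with an array left out; the 1 that rose became 0 without the trend. The cause of these changes was not tested. Probes called, 1021, became 2239 on the brighter probes, 2135 there without the trend, 1556 there after quantile normalization, 2208 with array weights and 0 without the trend on all probes, where 4951 had an unadjusted p under 0.05; 159 to 1894 were called with an array left out. The mean of a gene's probes in place of the brightest gave members no other value, since each has 1 probe. Signal near or below the array median limits Bcat1, Klf15 and the control readings of Ucp1, whose difference was 3.00, or 2.35 with the offset.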
